A study of Mus musculus with 4 samples.

Results

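The neutrophils of 4 transplanted HER2+ mammary tumours are described here: 61 of the 14555 cell barcodes that passed the filters. A barcode passed with at least 500 UMIs from mouse genes (a unique molecular identifier, or UMI, tags a single captured transcript), with 250 or more genes detected and no more than 20% of its UMIs from mitochondrial genes. It was called a neutrophil when S100a8 and S100a9 together made up at least 2% of its UMIs, Csf1r had 0 UMIs, C1qa, C1qb and C1qc together had fewer than 3, and Cd3d, Cd3e and Cd3g together had at most 1. The cells were therefore chosen from the same counts that describe them, and no level of S100a8, S100a9 or Csf1r below is a finding.

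Neutrophils are short-lived granulocytes that leave the bone marrow under the control of the granulocyte colony-stimulating factor receptor (Csf3r) and the chemokine receptors Cxcr2 and Cxcr4. Their granule proteins are made in marrow precursors and stored, so mature cells carry little of those mRNAs, while S100a8 and S100a9, the subunits of the calcium-binding protein calprotectin, stay abundant. In tumours they can release interleukin 1β and chemokines that draw further myeloid cells.

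The 4 tumours grew from H605 mammary tumour cells placed in the mammary pad of hosts of the FVB/NJ strain, labelled 6 to 8 weeks old, and were taken on day 14. There were 2 wild-type hosts (WT) and 2 hosts without Il1a (Il1a-/-); the labels state no change of Il1a in the injected cells. Each tumour is 1 sample, digested, depleted of red cells, enriched for live cells and run on the 10x Genomics 3' v3.1 chemistry. The labels give 2 pairs of tumours collected on separate days. Whether the equal replicate numbers name those pairs is not stated. The enrichment and the digestion act before any count, and neutrophils in the tissue that were lost at those steps are not seen.

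The libraries differed in depth. They held 23464120 and 29001333 UMIs in the WT tumours and 6705368 and 15298532 in the Il1a-/- tumours, and the median of the barcodes that passed was 3143, 4209.5, 1361 and 2902 UMIs. Neutrophils were shallower, with medians of 1417, 1432.5, 528 and 1057 UMIs, the lowest close to the minimum of 500. Over pairs of libraries, 13 barcodes that passed were shared, none of them from a neutrophil. In WT replicate 1, a neutrophil with 13583 UMIs stood apart from the next, with 1843, and held 33.7% of the neutrophil UMIs of that tumour. It carried 48 UMIs of the cytotoxic granzyme Gzma, 10 of Nkg7 and 15 of the proliferation gene Mki67 beside 3.17% of S100a8 and S100a9, and Scrublet, which scores doublets, did not mark it. Several results are also given without it. In Il1a-/- replicate 1, 1 of the 3 neutrophils, with 1437 UMIs, held 57.9% of the neutrophil UMIs of that tumour, so its levels rest mostly on 1 cell. That cell had 2.37% of S100a8 and S100a9, 1 UMI of Cxcr2, 4 of Nkg7 and 0 of Csf3r and Retnlg.

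The label was checked on markers that the rule had not used. Each of the 61 cells carried at least 1 UMI of Csf3r, Cxcr2 or Retnlg (a resistin-like secreted protein of mouse neutrophils). Csf3r was found in 20 of 20, 32 of 32, 1 of 3 and 6 of 6 cells, and Cxcr2 in 17 of 20, 32 of 32, 3 of 3 and 6 of 6, in the order WT replicate 1, WT replicate 2, Il1a-/- replicate 1, Il1a-/- replicate 2. Among T cells of the same libraries, which should lack the receptor, Csf3r was found in 0.0732%, 0.276%, 0.0693% and 0.0558% of cells at medians of 2882, 4349.5, 1501 and 3001 UMIs, so the share in neutrophils lay far above that background.

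Markers of other cell types were mostly at or near 0. The lists for B and plasma cells, mast cells and basophils, endothelial cells, platelets and erythroid cells had 0 UMIs in all 4 samples. T and NK cell markers summed to 38, 2, 5 and 0 UMIs, with 6 of 9 markers found in WT replicate 1 and 1, 2 and 0 in the others; the 10 UMIs of Nkg7 in WT replicate 1 came from the deepest cell, and 1 cell of Il1a-/- replicate 1 held 4. What part such RNA has in the sums was not tested. Monocyte markers summed to 30, 72, 1 and 6 UMIs (6, 4, 1 and 1 of 10 found), macrophage markers to 5, 11, 0 and 1 (3, 3, 0 and 1 of 10), fibroblast markers to 15, 11, 0 and 2 (5, 3, 0 and 1 of 8), and eosinophil markers to 4, 3, 0 and 0 (1, 2, 0 and 0 of 7). Ly6g, the surface protein by which mouse neutrophils are usually sorted, had 1 UMI over all 61 cells. The mRNA for it is thus almost absent from these data, which says nothing of the protein.

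**Figure D1:**
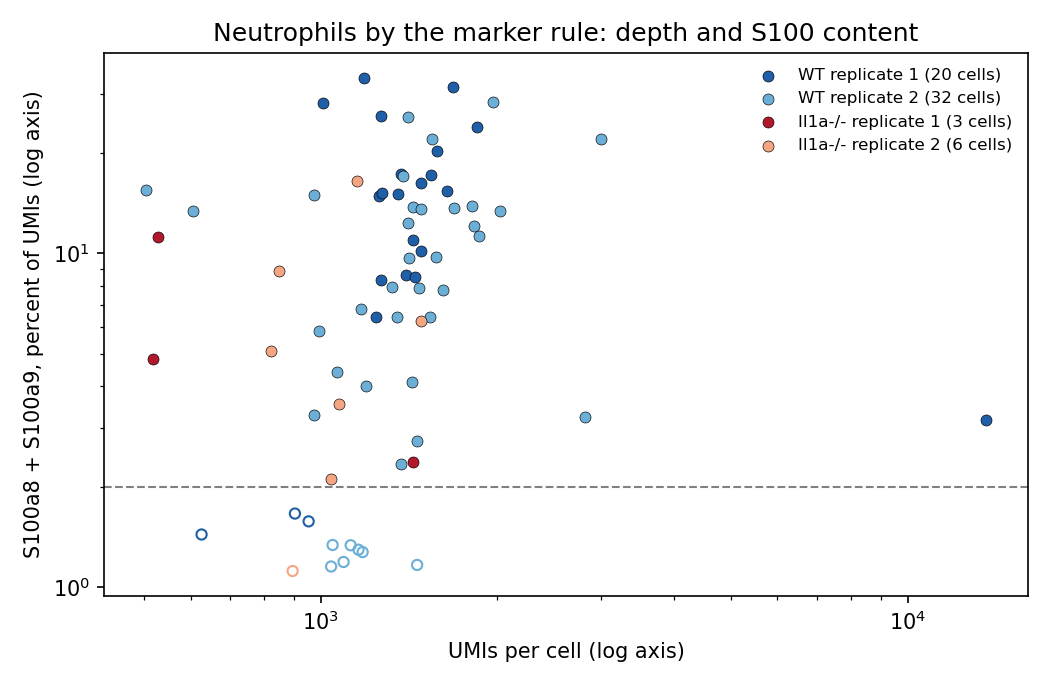
Each filled point is a neutrophil, coloured by tumour, at its UMI total (x, log axis) and the percent of its UMIs from S100a8 and S100a9 (y, log axis); open points are cells with 1 to 2% that met the other conditions, and the dashed line is the threshold of 2%. The WT cells reach 33.6%, 1 cell of WT replicate 1 stands alone at 13583 UMIs, and the 9 Il1a-/- cells lie between 2.11% and 16.5%.

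S100a8 and S100a9 content ran over more than an order of magnitude among the members. It was lowest at 3.17%, 2.34%, 2.37% and 2.11% in the 4 samples, had medians of 15.3%, 10.5%, 4.83% and 5.69%, and was highest at 33.6%, 28.5%, 11.2% and 16.5%. The 4 members nearest the threshold had 2.11, 2.34, 2.37 and 2.74%. Just outside it, 3, 7, 0 and 1 cells had 1.12 to 1.66% and met every other condition, and each of them also carried Csf3r, Cxcr2 or Retnlg. A further 3, 7, 0 and 0 cells passed the S100 threshold but had Csf1r, and again each carried at least 1 UMI of those 3 genes. In free RNA, S100a8 and S100a9 were 0.0198%, 0.0136%, 0.0650% and 0.00417% of UMIs, far below the threshold in each library.

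The S100a8 and S100a9 genes lie near each other on chromosome 3 (GRCm38, 90668978 to 90670035 and 90692632 to 90695721) and were read together by the rule. The 250 bases before the RefSeq start (GRCm38.p6) of both calprotectin subunits, Retnlg, Il1b, Csf3r and Cxcr2 were searched for a short motif. The 4 windows shown are those that hold a match, which leaves out Csf3r and Cxcr2. Capitals mark matches of TTNCNNAA on either strand, a short form of the site of C/EBP factors, which act throughout the granulocyte lineage.
S100a8 promoter, chr3:90668821-90669070 (+ strand): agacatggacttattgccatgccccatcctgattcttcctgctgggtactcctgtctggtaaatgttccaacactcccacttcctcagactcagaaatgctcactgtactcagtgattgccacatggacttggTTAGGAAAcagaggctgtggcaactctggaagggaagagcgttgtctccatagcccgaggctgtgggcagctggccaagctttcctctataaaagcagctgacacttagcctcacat
S100a9 promoter, chr3:90695722-90695971 (- strand): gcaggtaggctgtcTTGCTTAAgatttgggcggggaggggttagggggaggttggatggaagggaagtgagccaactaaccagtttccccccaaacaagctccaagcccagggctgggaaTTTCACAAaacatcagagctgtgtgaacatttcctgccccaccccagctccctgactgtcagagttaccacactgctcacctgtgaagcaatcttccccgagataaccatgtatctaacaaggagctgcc
Retnlg promoter, chr16:48872358-48872607 (+ strand): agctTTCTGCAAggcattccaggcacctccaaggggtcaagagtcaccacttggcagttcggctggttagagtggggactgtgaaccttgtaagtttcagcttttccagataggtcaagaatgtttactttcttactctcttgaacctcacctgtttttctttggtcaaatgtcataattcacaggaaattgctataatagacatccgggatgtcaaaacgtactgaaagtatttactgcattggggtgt
Il1b promoter, chr2:129371140-129371389 (- strand): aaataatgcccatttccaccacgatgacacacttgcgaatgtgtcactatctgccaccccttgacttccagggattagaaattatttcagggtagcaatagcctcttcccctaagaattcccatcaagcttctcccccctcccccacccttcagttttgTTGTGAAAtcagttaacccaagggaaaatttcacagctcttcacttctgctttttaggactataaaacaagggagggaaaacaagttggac

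The S100a8, Retnlg and Il1b windows hold 1 match each and the S100a9 window 2. The windows of Csf3r and Cxcr2, of the same length, hold none. Genes were counted when any of their windows held a match. That was so for 36 of the 79 genes with a window that were higher in neutrophils than in monocytes (45.6%) and for 19 of 49 that were lower (38.8%). It was so for 34.0% of 2375 genes with enough UMIs and for 40.3% of all 27025 genes with a window. A gene with several windows had more chances of a match. The higher genes include S100a8 and S100a9, which the rule used. GAGGAAG, a short form of the site of the myeloid factor PU.1, was found in 26.6%, 18.4%, 14.6% and 12.004% of the same sets. The NF-kB consensus was found in 2.53%, 0%, 0.505% and 0.414%, and TGANTCA (AP-1) in 5.06%, 14.3%, 5.81% and 7.82%. Both strands were searched, and a match is a description of letters, not a bound site.

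Neutrophils were rare in every tumour and a smaller share of the cells in both Il1a-/- hosts than in both WT hosts. In the WT hosts 20 of 4001 barcodes (0.500%, exact Clopper-Pearson 95% interval 0.306 to 0.771) and 32 of 4006 (0.799%, 0.547 to 1.13) were neutrophils. In the Il1a-/- hosts the counts were 3 of 3213 (0.0934%, 0.0193 to 0.273) and 6 of 3335 (0.180%, 0.0661 to 0.391). The groups did not overlap. WT hosts averaged 0.649% ± 0.211 (SD, n = 2) and Il1a-/- hosts 0.137% ± 0.0612 (SD, n = 2), a difference of -0.513 percentage points. The exact permutation p (two-sided) was 0.333, which is as low as 6 possible assignments of 4 tumours can go, and the comparison therefore cannot reach significance. Between samples with the same replicate number the difference was -0.407 and -0.619 points. The intervals cover counting error only.

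The share moved with the minimum depth of a barcode, through the neutrophils counted and the barcodes passing. With a minimum of 300 UMIs and 150 genes, Il1a-/- replicate 1 had 7 neutrophils of 3443 in place of 3 (0.203%), WT replicate 1 still had 20, of 4525, and the difference was -0.426 points. With barcodes thinned to a common median depth of 1361 UMIs, the counts were 20, 14, 3 and 3 and the difference -0.392. When the S100 condition was dropped and at least 1 UMI each of Csf3r and Cxcr2 was asked for, the counts were 21, 44, 1 and 7 and the difference -0.691. Depth was lower in both Il1a-/- libraries than in either WT library, and beyond these settings its part in the lower share was not tested. A share of a dissociated suspension also moves with every other cell type in it. The count of monocytes was 38, 90, 23 and 40, which makes 20, 32, 3 and 6 neutrophils beside them.

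**Figure D2:**
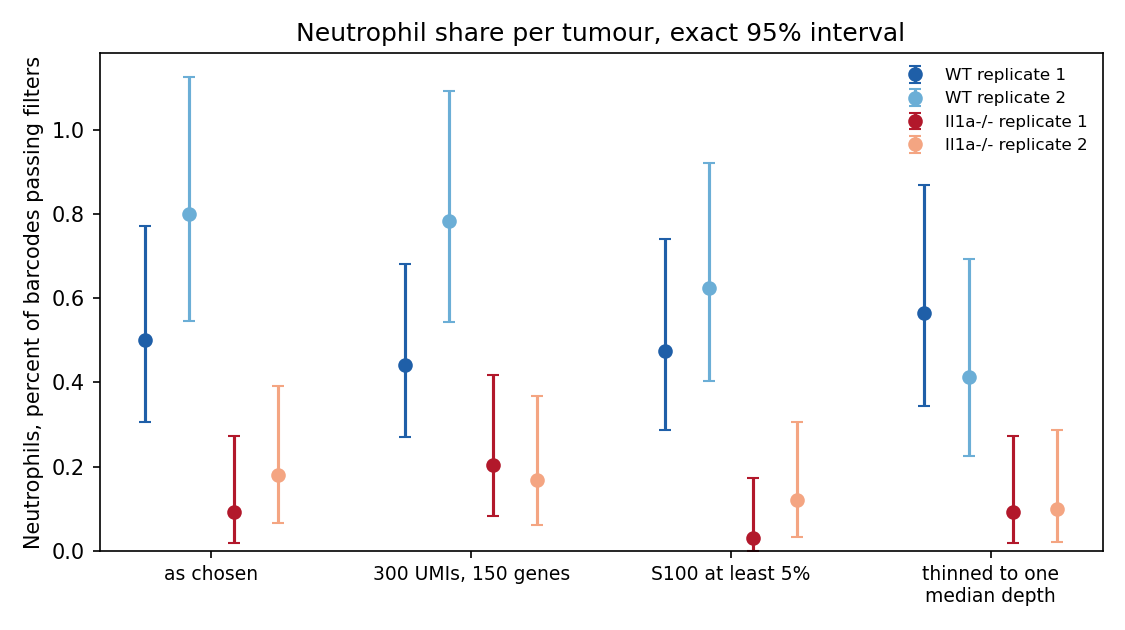
Neutrophils as a percent of barcodes passing filters (y) in each of the 4 tumours, with exact 95% binomial intervals, under 4 settings (x): the rule as chosen, a lower minimum depth, an S100 threshold of 5%, and libraries thinned to the same median depth. Both WT points lie above both Il1a-/- points in each setting shown, and some intervals of single tumours overlap.

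To describe the cells across genes, UMIs were summed over the neutrophils of each tumour and set beside the monocytes of the same tumour, as counts per 1e6 UMIs of the summed class (CPM). Monocytes were barcodes with at least 1 UMI each of Csf1r and Ly6c2 and under 2% S100a8 and S100a9. They also had fewer than 3 UMIs of C1qa, C1qb and C1qc, at most 1 of Cd3d, Cd3e and Cd3g, and no UMI of the plasmacytoid dendritic marker Siglech. The neutrophil sums held 40322, 47646, 2483 and 6421 UMIs and the monocyte sums 148544, 560171, 44866 and 166762. Because the classes were defined by their counts, these ratios are descriptions with no test. The monocyte sums also held markers of other cells. Conventional dendritic markers summed to 347, 1859, 309 and 600 UMIs, of which 329, 1824, 302 and 579 were of the MHC class II gene H2-Ab1. Macrophage markers summed to 654, 2190, 133 and 365 UMIs, T and NK markers to 3, 127, 4 and 3, and fibroblast markers to 14, 2503, 2 and 9. All 8 fibroblast markers were found in WT replicate 2, at 4468 CPM, against 3 of 8 at 94.2 CPM in WT replicate 1. The part of such RNA in the ratios was not tested. A class with under 3 UMIs was set to 3, which makes its ratio a bound; 3 UMIs equal 74.4 and 63.0 CPM in the WT neutrophils and 1208 and 467 CPM in the Il1a-/- ones. Of 2984 genes with at least 10 UMIs over both classes in each WT tumour, 110 (3.69%) were at least 4-fold higher in neutrophils in both WT tumours and 60 (2.01%) at least 4-fold lower. Without the deepest cell these counts were 131 and 141, and 104 of the 110 and 41 of the 60 stayed in them. WT replicate 1 alone gave 176 and 87 genes and WT replicate 2 alone 389 and 244. The median over all 2984 genes was a log2 ratio of -0.07. Of the 110 genes, 62 were at least 4-fold higher in Il1a-/- replicate 2 and 32 in Il1a-/- replicate 1, where 17 and 48 were under the floor in both classes.

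**Figure D3:**
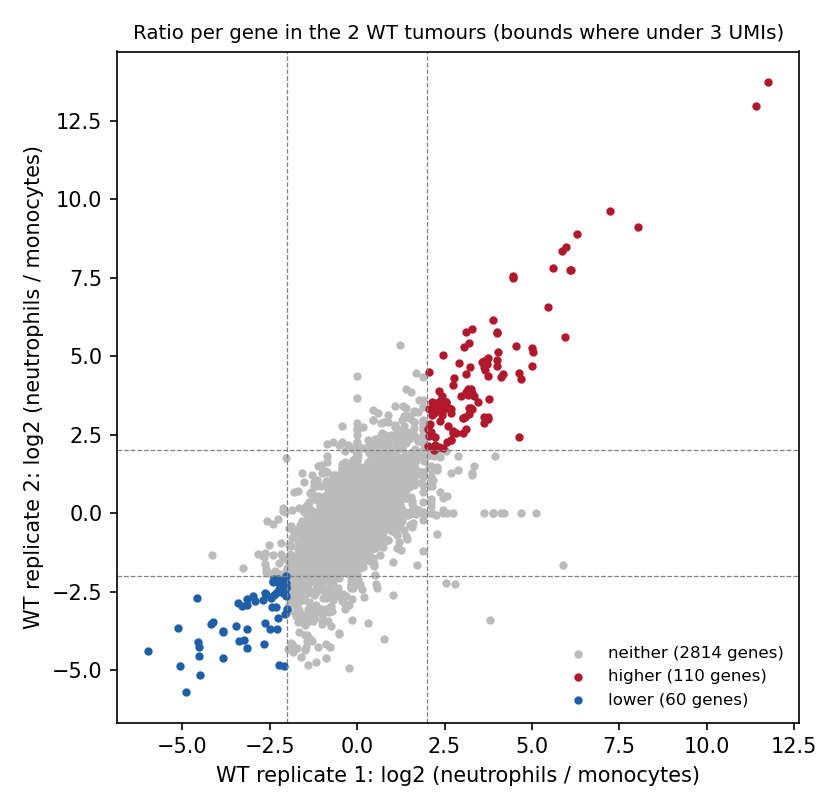
Each point is 1 of 2984 genes at its log2 ratio of neutrophils to monocytes in WT replicate 1 (x) and WT replicate 2 (y); dashed lines mark 4-fold, red points the 110 genes higher and blue points the 60 genes lower in both tumours, and ratios with under 3 UMIs in a class are drawn at their bound. The 2 points at the upper right are S100a9 and S100a8, which the rule used.

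The list of neutrophil receptors and lineage genes, which holds enzymes and secreted proteins beside receptors, had the highest median ratio of the lists. Of its 24 genes, 18 had enough UMIs, 11 of them were at least 4-fold higher in both WT tumours, none was lower, and their median log2 ratio was 4.27. Csf3r was at 1959 and 2456 CPM in WT neutrophils and at 1208 and 3271 in Il1a-/- neutrophils, against 148, 91.0, 89.2 and 89.9 in monocytes, 13.2-fold and 26.97-fold higher in the WT tumours. Cxcr2, the receptor for the chemokines that recruit neutrophils, was at 1166, 2938, 2014 and 1246 CPM against 0, 8.93, 0 and 0. Its WT ratios were at least 57.7-fold and 329-fold. Counting intervals of the WT values for Cxcr2 (856 to 1550 and 2472 to 3467) do not overlap, and without the deepest cell WT replicate 1 stood at 1646.

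Retnlg was at 5332 and 3001 CPM in the WT tumours, at 0 in the 3 cells of Il1a-/- replicate 1 and at 6074 in Il1a-/- replicate 2, while monocytes had 0, 1, 0 and 0 UMIs, so the WT ratios were at least 264-fold and at least 560-fold. A 0 in Il1a-/- replicate 1 allows up to 1208 CPM, which is below the values of the other 3 samples. G0s2, an inhibitor of triglyceride lipase, was at 3050, 4219, 4430 and 1713 CPM and, like Retnlg, had at most 1 UMI in the monocytes of any tumour. Hdc, which makes histamine, was at 1265, 2540, 5236 and 2803 CPM, at least 62.6-fold and 356-fold above WT monocytes. Trem1, an activating receptor that amplifies inflammation, was at 1686, 1469, 403 and 2803 CPM against 94.2, 67.8, 66.9 and 89.9 in monocytes. Stfa2l1, a stefin protease inhibitor, and Mrgpra2b, a receptor, had 0 UMIs in the monocytes of all 4 tumours and 446 and 965 CPM, and 322 and 294 CPM, in WT neutrophils.

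**Figure D4:**
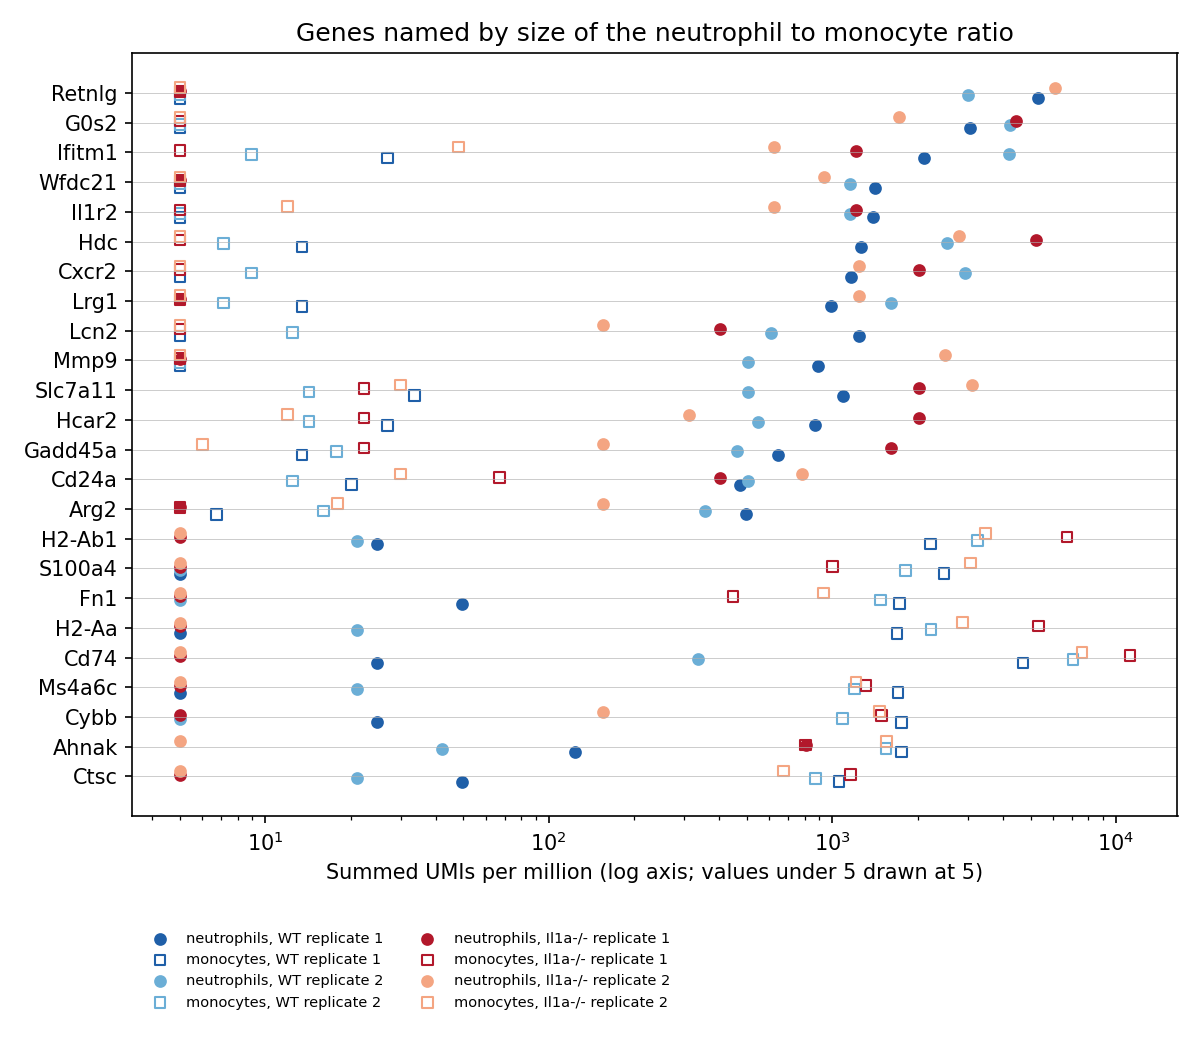
Summed level in CPM (x, log axis, values under 5 drawn at 5) of the 15 genes furthest above and 9 of the 10 furthest below monocytes (y), in neutrophils (filled circles) and monocytes (open squares) of each tumour by colour. Filled points lie right of open ones for the upper 15 genes, except where Il1a-/- replicate 1 or 2, with 3 and 6 cells, had few or no UMIs, and left of them for the lower 9, apart from Ahnak in Il1a-/- replicate 1 (805 and 802).

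mRNAs of the granules were split by granule type. Of 6 genes in the files from the azurophil granule list, Mpo, Elane, Ctsg and Bpi had 0 UMIs in all 61 cells. That allows up to 31.0 CPM over all neutrophils. Igfals, on that list though not a granule gene, also had 0, and Prtn3 had 1 UMI in each WT tumour. Of the genes listed for specific and gelatinase granules, which are made later, 13 of 17 had enough UMIs, 5 were higher and 2 were lower. Their median log2 ratio was 1.56. That list also holds Arg2, counted among the 5 higher, and Padi4, which are not granule proteins. The lactoferrin gene Ltf had 1 UMI, and Camp, Ngp and Padi4 had none. Lcn2 (lipocalin 2, which binds bacterial siderophores) was at 1240 and 609 CPM in WT neutrophils, at least 61.4-fold and 48.7-fold above monocytes. Against monocytes that needed no Ly6c2 its direction turned, to a log2 ratio of -0.67. Mmp9, the gelatinase, was at 893 and 504 CPM in WT, at 2492 in Il1a-/- replicate 2 and at 0 in Il1a-/- replicate 1, with 0 UMIs in the monocytes of all 4 tumours. Wfdc21 was at 1414 and 1154 CPM, also against 0 UMIs. Hp (haptoglobin) was at 1265 and 1805 CPM against 269 and 157, and Arg2, a mitochondrial arginase, at 496 and 357 against 6.73 and 16.1.

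The 2 granule-list genes on the lower side were Lyz2 and Cybb. Lyz2 (lysozyme) was at 1290, 672, 805 and 3271 CPM in neutrophils against 12246, 11118, 6040 and 8353 in monocytes. Cybb, the catalytic subunit of the NADPH oxidase that makes superoxide, had 1, 0, 0 and 1 UMIs over the 61 neutrophils, against 1750, 1087, 1493 and 1463 CPM in monocytes, and was at least 23.5-fold and at least 17.3-fold lower in WT. No other oxidase gene was at least 4-fold lower. Rac1 was at 347 and 336 CPM in WT against 404 and 470. The membrane partner of Cybb, Cyba, was at 1339 and 1217 CPM in WT neutrophils against 1266 and 1491, and the GTPase Rac2 at 1166 and 861 against 256 and 211. Of the 7 oxidase genes, 1 was higher (Rac2), 1 lower (Cybb), and the median log2 ratio was 0.73.

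Interleukin 1β mRNA was found in every neutrophil. Il1b was at 11532 and 19099 CPM in WT and 10874 and 7631 in Il1a-/- neutrophils, against 1528, 700, 1493 and 708 in monocytes, and its WT ratios were 7.55-fold and 27.3-fold (16642 CPM in WT replicate 1 without the deepest cell). Single cells held 5 to 47 and 6 to 64 Il1b UMIs in the WT tumours and 5 to 11 and 4 to 18 in the Il1a-/- tumours. In T cells Il1b was found in 0.512%, 0.622%, 0.347% and 0.502% of cells. Il1a, the gene removed from the knockout hosts, lies next to Il1b on chromosome 2 (129299610 to 129309972 and 129364570 to 129371139, GRCm38). It had 0, 1, 0 and 0 UMIs in neutrophils, and 67, 112, 1 and 0 UMIs over all barcodes that passed. Neutrophils were only 0.500% and 0.799% of the barcodes that passed in the WT tumours, so the low count cannot be read as a trait of these cells. Nor can their counts check the knockout.

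The rest of the interleukin 1 system was described from a list of 15 genes, 14 of them in the files. Of these, 7 had enough UMIs, 4 were higher (Il1b, Il1r2, Il1rap and Nlrp3), none was lower and the median log2 ratio was 3.30. Il1r2, the decoy receptor that binds interleukin 1 without signalling, was at 1389, 1154, 1208 and 623 CPM against 0, 1, 0 and 2 UMIs in monocytes, at least 68.8-fold and at least 216-fold higher in WT. Il1r1, the signalling receptor, had 0 UMIs in all 61 neutrophils. Il1rap, the shared accessory chain, was at 322 and 357 CPM in WT against 33.7 and 23.2. Nlrp3, the sensor of the inflammasome that leads to interleukin 1β cleavage, was at 719 and 923 CPM against 74.1 and 92.8. Il1rn, the receptor antagonist, was at 843, 672, 2416 and 156 CPM, 3.91-fold and 3.69-fold above WT monocytes.

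Among chemokines the neutrophils carried Cxcl2, itself a ligand of Cxcr2, in 13 of 20, 19 of 32, 2 of 3 and 4 of 6 cells. Its level was 5158, 5961, 16110 and 4361 CPM against 1972, 580, 1560 and 1649 in monocytes, and it reached 79 UMIs in 1 cell of WT replicate 2. In Il1a-/- replicate 1, 1 cell held 31 Cxcl2 UMIs and the others 9 and 0. The WT ratios of 2.62-fold and 10.3-fold did not both reach 4-fold. Of the other Cxcr2 ligands, Cxcl5, Ppbp and Pf4 had 0 UMIs, Cxcl3 had 9, 6, 0 and 0, and Cxcl1 had 0, 0, 0 and 1. Ccl4, which draws monocytes and T cells, was found in 9 of 20, 8 of 32, 3 of 3 and 1 of 6 cells with up to 62 UMIs in a cell, so its level of 1587, 3085, 3222 and 467 CPM rested on a minority of WT cells. Ccrl2, a receptor that binds chemerin, was at 1984, 1973, 2014 and 1557 CPM and 17.3-fold and 20.5-fold above WT monocytes. Over the 9 chemokine-list genes, 8 had enough UMIs, 1 was higher, 1 was lower (Ccl9, at 0 in all 61 cells) and the median log2 ratio was -0.30.

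The TNF and NF-kB response was described from 20 genes. Of these, 17 had enough UMIs, 4 were higher (Tnfaip2, Ptgs2, Cd14 and Il1b), none was lower, 12 were above 1-fold in both WT tumours and the median log2 ratio was 1.40. Cd14, the co-receptor for lipopolysaccharide, was at 4266, 6359, 4833 and 2959 CPM against 821, 528, 1048 and 840. Ptgs2 (cyclooxygenase 2, which starts prostaglandin synthesis) was at 2083, 1490, 2416 and 156 CPM against 397, 139, 357 and 300; the last value is 1 UMI. Nfkbia, the inhibitor of NF-kB that NF-kB itself induces, was at 1587 and 3085 CPM in WT, 2.84-fold and 8.15-fold above monocytes. In eicosanoid synthesis as a whole, 3 of 10 genes had enough UMIs, Ptgs2 was the 1 higher, and the median log2 ratio was 0.59.

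Genes ascribed to tumour-associated and suppressive neutrophils numbered 22. Of these, 14 had enough UMIs, 5 were higher, none was at least 4-fold lower, 4 were below 1-fold in both WT tumours and the median log2 ratio was 1.77. Arg1 (arginase 1) and Nos2 (inducible nitric oxide synthase), which deplete or convert arginine, had 0 UMIs in all 61 cells, as did Slc27a2, Dcstamp and Tnfrsf10b. Tgfb1 was at 223 and 147 CPM in WT against 417 and 361 in monocytes. Wfdc17 was at 4489, 5016, 3222 and 1713 CPM against 889, 511, 312 and 396, and Hcar2, a receptor for hydroxybutyrate and niacin, at 868 and 546 CPM in WT against 26.9 and 14.3. Slc7a11, the cystine transporter, was named by the size of its ratio and was at 1091, 504, 2014 and 3115 CPM against 33.7, 14.3, 22.3 and 29.98, 32.4-fold and 35.3-fold higher in WT. Siglecf, which marks a state of tumour neutrophils as well as eosinophils, had 4, 2, 0 and 0 UMIs. Cd274, which codes for PD-L1, had 1, 9, 4 and 6 UMIs, or 24.8, 189, 1611 and 934 CPM. The Il1a-/- values for Cd274 lie above the WT values but are 4 and 6 UMIs from 3 and 6 cells.

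Receptors of egress and ageing were described from 12 genes. Of these, 11 had enough UMIs, 3 were higher (Cxcr2, Selplg and Cd24a), none was lower and the median log2 ratio was 1.12. Cxcr4, which returns aged cells to the marrow, had 8, 10, 4 and 5 UMIs. Selplg, the ligand of P-selectin, was at 992 and 965 CPM in WT against 182 and 98.2 in monocytes. Of 16 survival and death genes, 11 had enough UMIs, Gadd45a and Gadd45b were higher, none was lower and the median log2 ratio was 0.91. Mcl1, the short-lived survival factor on which neutrophils depend, was at 3522, 4701, 1208 and 4361 CPM against 1050, 921, 1092 and 923, which is 3.35-fold and 5.10-fold in WT.

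Sensors and transcription factors were described in the same way. Of 19 pattern recognition genes in the files, 14 had enough UMIs, 3 were higher (Cd14, Clec4d and Lilr4b), none was lower and the median log2 ratio was 1.56. Tyrobp, the signalling adaptor of many such receptors, was at 5952 and 6863 CPM in WT against 2383 and 2187. Of 24 transcription factors, 21 had enough UMIs, 3 were higher (Cebpd, Egr1 and Mxd1), 2 lower (Zeb2 among them) and the median log2 ratio was 0.88. Mxd1, which opposes MYC, was at 1141, 2141, 2819 and 2336 CPM against 121, 85.7, 156 and 144. Cebpb was at 3497 and 5415 CPM against 2235 and 1487, below 4-fold. Cebpa, Cebpe and Gfi1, which act in granulocyte precursors, had 0 UMIs in all 61 cells.

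Genes of antigen presentation by MHC class II were on the lower side. Of 17 antigen presentation genes, 14 had enough UMIs, none was higher, 4 were lower (H2-Aa, H2-Ab1, H2-DMa and Cd74) and the median log2 ratio was -0.999. H2-Ab1 had 1, 1, 0 and 0 UMIs in neutrophils against 2215, 3256, 6731 and 3472 CPM in monocytes. Cd74, the invariant chain, was at 24.8 and 336 CPM in WT neutrophils against 4706 and 7053. Class I genes lay near the monocyte level: B2m was at 1810 and 2498 CPM against 1919 and 2533, and H2-D1 at 2629 and 3463 against 2215 and 2787. S100a4 had 0 UMIs in all 61 neutrophils against 2477, 1816, 1003 and 3064 CPM in monocytes, while S100a11 was 9.51-fold and 10.2-fold higher in WT neutrophils, at 5506 and 5100 CPM. Among 6 S100 genes outside the rule, 5 had enough UMIs, with a median log2 ratio of -0.94. Fn1, Ms4a6c, Ahnak and Ctsc were also among the lower genes named, with WT ratios at least 13.8-fold lower in each tumour.

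**Figure D5:**
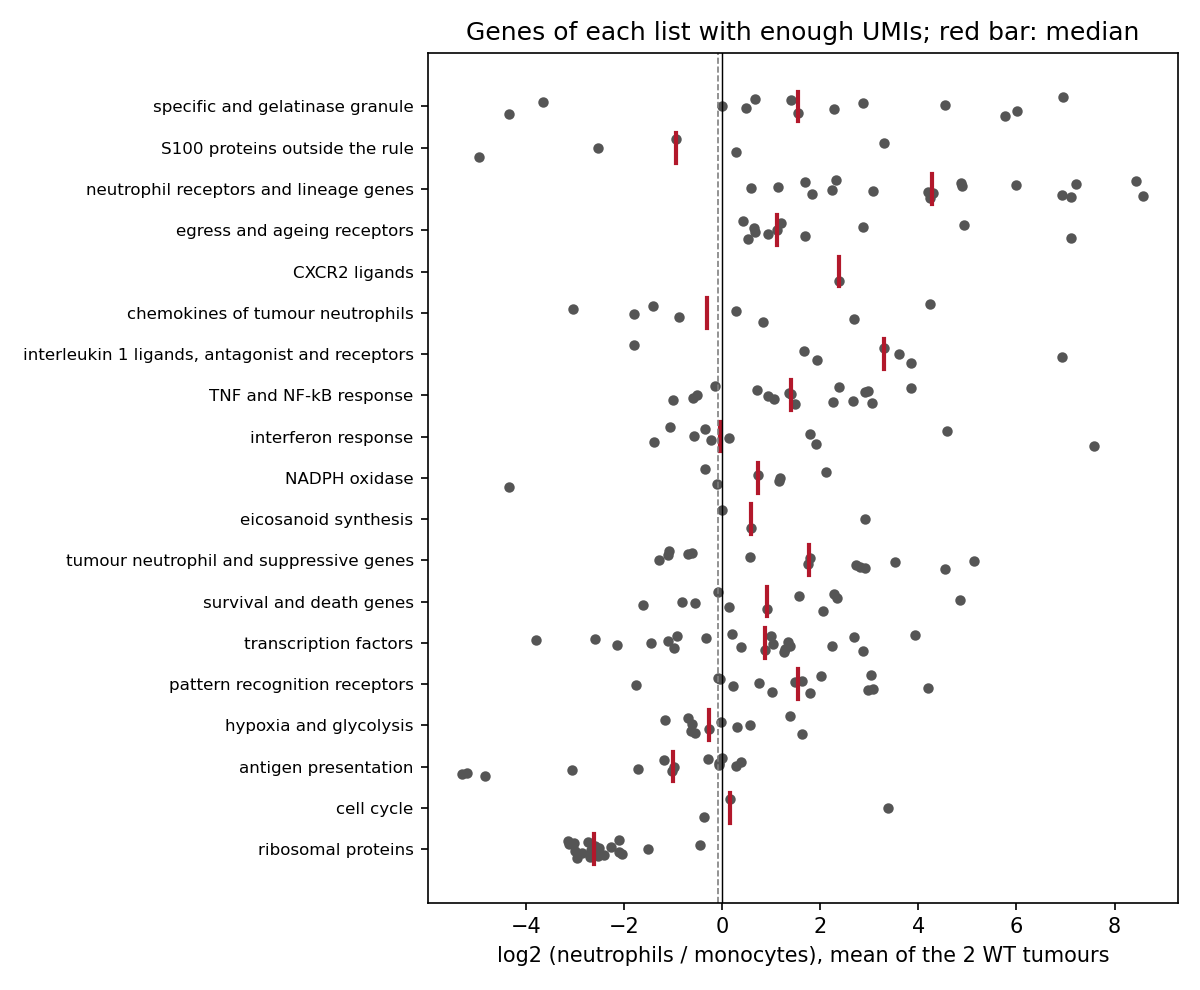
Each grey point is a gene with enough UMIs at its mean log2 ratio of neutrophils to monocytes in the 2 WT tumours (x), by gene list (y); red bars are medians, and the dashed line is the median of all 2984 genes. Receptors and lineage genes have the highest list median, at 4.27, and ribosomal protein genes the lowest, at -2.62.

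Protein synthesis genes were low in these cells. All 20 ribosomal protein genes of the list were below 1-fold in both WT tumours, 2 of them at least 4-fold lower, with a median log2 ratio of -2.62; without the deepest cell 19 were at least 4-fold lower and the median was -3.67. Rps24 was at 1761, 357, 1208 and 467 CPM against 5628, 4911, 4435 and 5115 in monocytes, and at 112 in WT replicate 1 without the deepest cell. Rps9 departed from that, at 3770 and 3904 CPM against 5507 and 5043. Mitochondrial transcripts were also low: the median neutrophil had 0.162%, 0.201%, 0% and 0.102% mitochondrial UMIs, against 3.26%, 3.32%, 2.30% and 2.45% for all barcodes. Of 20 cell cycle genes, 3 had enough UMIs, 1 was higher and none lower, with a median log2 ratio of 0.16, or -0.21 without the deepest cell. Top2a, Birc5 and Mki67 had 20, 17 and 15 UMIs in WT replicate 1, each in 1 cell (for Mki67 the deepest), and 0 in the other samples. Hmgb2, a chromatin protein, was the gene that was higher, at 3993 CPM in WT replicate 1 (1720 without the deepest cell) and 1469 in WT replicate 2 against 296 and 182. Of 20 hypoxia and glycolysis genes in the files, 11 had enough UMIs and none reached 4-fold either way, with a median log2 ratio of -0.26.

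Interferon response genes differed between the 2 WT tumours. Of 26, 10 had enough UMIs, 2 were higher (Ifitm1 and Slfn4), none was lower and the median log2 ratio was -0.04. Without the deepest cell 1 was higher (Ifitm1) and the median was 0.0964. Gbp2, a guanylate-binding protein that interferon induces, had 0 UMIs in the 20 neutrophils of WT replicate 1 and 63 in 12 of the 32 of WT replicate 2, with 8 and 9 in the Il1a-/- tumours. Cxcl10, an interferon-induced chemokine, had 0, 46, 2 and 0 UMIs, of which 36 lay in 1 cell. Gbp2 was also lower in the monocytes of WT replicate 1, at 182, 871, 557 and 642 CPM. Ifitm1 was at 2108 and 4198 CPM in WT neutrophils and 78.3-fold and 470-fold above monocytes, while Ifitm3 was at 620 and 1469 CPM against 3292 and 1873.

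Neutrophils of 1 tumour differed among themselves. Retnlg was found in 18 of 20 cells of WT replicate 1 and 18 of 32 of WT replicate 2, with 0 to 55 and 0 to 54 UMIs per cell and medians of 7 and 1. Mmp9 was found in 17 of 20 and 11 of 32. Across the cells of a tumour, the share of UMIs from Retnlg went with that of Msrb1, a methionine sulfoxide reductase abundant in neutrophils, at a Spearman rho of 0.40 over 20 cells and 0.63 over 32 (0.31 over 19 without the deepest cell), as a description of cells that share a library. That pair was 1 of many computed. Il1b was in every cell, and its median per cell was 23.5 and 24 UMIs in the WT tumours. Its level also varied, from 0.147% to 3.25% and from 0.484% to 4.47% of the UMIs of a cell there.

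The S100 threshold left out some cells with neutrophil receptors. With Csf3r and Cxcr2 at 1 UMI or more, no Csf1r and under 2% S100a8 and S100a9 there were 4, 12, 0 and 1 cells, of 928, 1214.5 and 895 median UMIs where found. Their S100 median was 1.51%, 0.454% and 1.12%, and 2 of the 12 in WT replicate 2 had none. Retnlg was at 822 and 114 CPM in those of the WT tumours, against 5332 and 3001 in the neutrophils. Wfdc21 was at 0 and 114 against 1414 and 1154. The sums of these WT cells hold only 3650 and 17618 UMIs, so such low values rest on very few UMIs. Across the WT neutrophils the share of Retnlg went with that of S100a9 (Spearman rho 0.68 and 0.44). A lower Retnlg level in cells chosen for low S100 may thus be partly set by the choice and is not a finding. Csf3r was at 1918 and 2157 CPM, against 1959 and 2456 in the neutrophils. Each of these cells was chosen for having Csf3r, so that likeness is partly set by the choice and is not a finding. Il1r2, which the choice did not use, was at 1644 and 1873 CPM against 1389 and 1154. Il1b was at 19178 and 12430 CPM. The cells were set apart by their counts, so no test was made.

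Genes between hosts could be compared only with few cells. By a minimum of 5 neutrophils for a sum, Il1a-/- replicate 1 (3 cells, 2483 UMIs) was left out, and Il1a-/- replicate 2 (6 cells, 6421 UMIs) was set against the 2 WT tumours with edgeR's quasi-likelihood test. The single Il1a-/- sum is assumed to vary as the WT ones do. Of 880 genes, 4 were called (0.455%) with Benjamini-Hochberg adjustment, 2 in each direction, against 81 at an unadjusted p under 0.05. The 2 lower genes were S100a8 (43089 to 54933 CPM in WT and 29123 in Il1a-/- replicate 2) and S100a9 (70185 to 72913 and 42517). Both chose the cells, so their calls are no test, and 2 of the 4 remain.

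The 2 genes called higher were Slpi and Samhd1. Slpi, a secreted inhibitor of neutrophil elastase, had 9 and 20 UMIs in WT (223 and 420 CPM), 0 in Il1a-/- replicate 1, where 0 allows up to 1208 CPM, and 28 in 4 of the 6 cells of Il1a-/- replicate 2 (4361 CPM), with up to 11 in a cell. Its log2 difference was 3.41 (SE 0.75, edgeR adjusted p = 0.00264). Samhd1, which breaks down deoxynucleotides, had 13, 41, 2 and 30 UMIs, or 322, 860, 805 and 4672 CPM, and of the 30 UMIs 15 lay in 1 cell. Its log2 difference was 2.64 (SE 0.69, edgeR adjusted p = 0.0324). For Il1a-/- replicate 1, depth cannot place either gene against the WT range, since 3 UMIs there equal 1208 CPM. The bound for Slpi and the 805 CPM (2 UMIs) of Samhd1 in that tumour lay below the levels of Il1a-/- replicate 2. Over all 4 samples edgeR called 0 of 390 genes, with 8 at an unadjusted p under 0.05, and with DESeq2 in place of edgeR it was 0 of 880, with 12. Without the deepest WT cell edgeR called 0 of 546, with 40 unadjusted. The log2 differences there were 3.18 for Slpi and 2.47 for Samhd1, and 3.48 and 2.71 with DESeq2.

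None of the other genes chosen was called in this fit. In Il1a-/- replicate 2 against WT, Il1b differed by a log2 of -1.33 (SE 0.39, edgeR adjusted p = 0.0870), Ptgs2 by -3.82 (SE 1.19, adjusted p = 0.121), Il1rn by -2.59 (SE 1.32, adjusted p = 0.540) and Cd274 by 2.73 (SE 1.21, adjusted p = 0.431). For Csf3r (0.23), Cxcr2 (-1.04), Il1r2 (-1.36) and Cxcl2 (-0.69) the adjusted p-values with edgeR were 0.767 or higher. Il1a was too low to be tested. With no filter on low counts edgeR called Il1b (-1.95, adjusted p = 0.000246) and Ptgs2 (-4.41, adjusted p = 0.0330) lower; over the other settings the adjusted p was 0.0870 to 0.99967 for Il1b and 0.121 to 0.99967 for Ptgs2. With 6 cells behind the Il1a-/- sum, a gene needs 467 CPM to reach 3 UMIs there, and lower genes could not be seen.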

How the data were processed

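The deposited values are raw UMI counts per gene and barcode, made with Cell Ranger 3.1.0 per the file headers and the submitters' processing notes. The authors' matrices hold 6794880 barcodes and 64591 features each, from a combined reference (33538 human GRCh38 and 31053 mouse mm10); mouse features were used. Strand and intron settings are not given in the sources used here. No cell annotation was used.

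Barcodes were filtered and classed by the thresholds in the report; free RNA came from barcodes of at most 100 UMIs. Doublets were not removed; Scrublet (scanpy 1.11.5, the highest-scoring 0.8% per 1000 barcodes) served as an alternative. Cells are not replicates: counts were summed per tumour and class. Where a class had under 3 UMIs it was set to 3, and where that gave no direction the ratio was set to 1. Between hosts, edgeR 4.0.16 (R 4.3.3; filterByExpr, TMM, quasi-likelihood) was used, and DESeq2 1.42.0 as an alternative, with Benjamini-Hochberg adjustment over all genes tested and a threshold of 0.05. The ratio rule and the host test were also run on simulated sums, with the outcome not reported here. Those sums did not model a few cells of which 1 holds much of the UMIs of a gene. Shares carry exact 95% intervals (scipy 1.17.1). P-values cover these tumours only. In the main host fit the single Il1a-/- sum gives no spread between Il1a-/- tumours. The spread behind its p-values comes from the WT sums and is shared across the genes tested. Those p-values therefore do not measure how far a gene varies between tumours of each host. A change in calls between settings can also reflect that shared spread. Positions are from GENCODE vM21 (GRCm38) by gene identifier, and promoter windows from RefSeq.

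The cell rule, gene lists and genes named were chosen with earlier results of these data known. Named against monocytes were the 15 highest and 10 lowest genes by the smaller WT ratio, without rule, ribosomal, mitochondrial and unnamed genes, and up to 4 of the highest members of each list, with markers. Other genes were named after their values were seen. Between hosts, called genes and 11 chosen genes were named. Results for some genes are not reported here.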

Additional observations from a re-analysis of the deposited data

How the results depend on the processing

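The lower neutrophil share in Il1a-/- hosts kept its direction under every alternative run. Differences ran from -0.691 to -0.392 points over the cell rules and depths and from -0.662 to -0.363 when 1 tumour was left out. Leaving out a tumour could not turn the direction, since both Il1a-/- shares lay below both WT shares. Asking for at least 1 UMI of Csf3r, Cxcr2 or Retnlg kept the same cells. The exact permutation p was 0.333 in each alternative, which the design fixes. The alternatives added after the data were seen were those without Scrublet-marked barcodes, without the deepest neutrophil, without the S100 condition, with thinned libraries and with all 4 sums.

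Of the counts against monocytes, the 110 higher genes became 202 when monocytes needed no Ly6c2, and 176 to 389 when a WT tumour was left out, since 1 tumour then decides. The 60 lower genes became 145 with an S100 threshold of 5%, 141 without the deepest cell, and 87 to 244 with 1 WT tumour left out. With at least 5 UMIs in place of 10, 163 genes were higher. Of 275 values of the 25 named genes under alternatives, 232 moved by no more than the SD between the WT tumours, 42 moved further and 1 reversed. The reversal was Lcn2, at a log2 ratio of -0.67 with monocytes that needed no Ly6c2. Leaving out a WT tumour cannot move a value beyond that SD. Asking for at least 1 UMI of Csf3r, Cxcr2 or Retnlg, or for at most 10% mitochondrial UMIs, kept the same cells. Asking for at least 5 UMIs left the ratios as they were. The values under these settings are among the 232 by construction.

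Between hosts, the 4 genes called became 10 with no filter on low counts, all lower. With edgeR, 0 were called without the deepest cell, with all 4 samples, and without the S100 condition (of 951, 49 at an unadjusted p under 0.05). With the replicate block in a fit of all 4 samples 0 of 390 were called, with 7 unadjusted; the labels do not say that equal numbers share a day, and no block could be fitted to 3 samples. DESeq2 called 0. Fits that took in Il1a-/- replicate 1 and left out 1 other tumour called 0 to 4, and the 4, called without Il1a-/- replicate 2, were all lower. The fit with an S100 threshold of 5% was not run, because Il1a-/- replicate 2 then had 4 cells. Leaving out a tumour, Slpi ranged from -6.32 to 3.19 and Samhd1 from -0.21 to 2.92, the lowest values being those without Il1a-/- replicate 2. Among the genes never called, the sign also turned for Csf3r (-0.38 with no filter, -0.21 with all 4 samples, -0.36 with the block, and -1.53 to -0.0065 with a tumour left out), Cxcl2 (0.43, 0.24, and 0.28 to 0.87, for the last 3 of these settings), Il1rn (0.069 with all 4 samples, -0.068 to 0.999 with a tumour left out) and Cxcr2 (-1.26 to 0.069 with a tumour left out). The cause was not tested.

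Depth limits what is said of the Il1a-/- neutrophils, which number 3 and 6 and hold 2483 and 6421 UMIs.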
